A study of Homo sapiens with 18 samples.

Results

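The regnase, roquin and ZFP36 families are RNA-binding regulators that set how long inflammatory mRNAs persist. Here, 10 genes were followed: the 4 regnases ZC3H12A, ZC3H12B, ZC3H12C and ZC3H12D, the 2 roquins RC3H1 and RC3H2, the 3 tristetraprolin-like genes ZFP36, ZFP36L1 and ZFP36L2, and ARID5A. They were taken by gene symbol, as 10 of the 56609 symbols in the count table, with earlier results of these data known. All 10 reached the minimum of 10 counts summed over the libraries. RNA came from the EBV-positive CLL cell lines HG3, MEC2 and PCL12, either unstimulated or stimulated for 4 h with 2.5 μg·mL−1 of CpG-ODN2006, an oligonucleotide that activates the endosomal DNA receptor TLR9. Each of the 6 groups held 3 replicates, so 18 libraries were compared, and every replicate series paired 1 stimulated with 1 unstimulated sample. Each line stems from the leukemic cells of 1 patient and carries EBV in both treatments, and only 1 dose and 1 time point were measured. Nothing in the sources says that the replicates were separate cultures, so P values measure the spread between these samples, which may be technical.

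Regnase-1, the product of ZC3H12A, is an endonuclease that cuts mRNAs at stem-loops in their 3′ UTR, and the roquins bind the same kind of stem-loop and recruit deadenylases. ZFP36 and its relatives bind AU-rich elements and hand their mRNAs to the CCR4-NOT complex, while ARID5A shields some Regnase-1 targets such as IL6. In lymphocytes and macrophages, TLR and antigen receptor signals are known to switch these proteins off by phosphorylation or cleavage and to induce several of their genes, so that the regulators and their targets, among them NFKBIZ, move within the same hours.

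The libraries held 20382943 to 67308932 counts, and a count of 0 allows up to 3 counts, equal to 0.0446 to 0.147 CPM (counts relative to library size, counting error only). B-cell markers were high in every library (6 genes, summed level 1962 to 3415 CPM), whereas the T-cell, NK-cell, myeloid and erythroid lists stayed at or below 4.14 CPM and the epithelial list at or below 21.4 CPM. The CLL marker CD5 had a median of 47.2 CPM in HG3, 0.712 CPM in PCL12 and 0.0258 CPM in MEC2, whereas FCER2 (CD23), the other CLL marker, had medians of 1510, 692 and 455 CPM. Replicates 2 and 3 of PCL12, in both treatments, contained transcripts of MEC2 genes. The median level of 45 MEC2 genes, chosen for being low in PCL12 replicate 1, was 29 to 31.3% of that in MEC2 in these libraries, whereas 76 HG3 genes chosen in the same way were there at 2.24 to 3.4% of their HG3 level. With 47 MEC2 genes chosen on the CpG library of replicate 1 alone, the unstimulated library of replicate 1, which the choice did not use, was at 2.39%. Mitochondrial genes took 20.2% of counts in HG3 unstimulated replicate 2 and 19.7% in MEC2 CpG replicate 2, against 2.82 to 9.28% in the other libraries.

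Because both protein groups act on short elements of the 3′ UTR, the elements present in the regulators' own mRNAs were listed. The 3′ UTR of the canonical transcript (GENCODE 44, GRCh38) was searched on the sense strand for the AU-rich nonamer UUAUUUAUU and for a stem of 5 Watson-Crick pairs closed by a loop of 3 bases in the order pyrimidine, purine, pyrimidine, the loop type of regnase and roquin sites. Of 19461 3′ UTRs, 8.48% held the nonamer and 24.1% a stem-loop, and 5 of the 10 regulators held each. The nonamer occurred in ZC3H12C, RC3H2, ZFP36, ZFP36L1 and ZFP36L2. Stem-loops occurred in ZC3H12A (3), ZC3H12B (4), ZC3H12C (1), RC3H1 (5) and RC3H2 (2). Those of RC3H1 at positions 1758 and 1761 of its 3′ UTR overlap within a stretch of U and A. ZC3H12D and ARID5A held neither element. The 3′ UTRs range from 321 bases in ARID5A to 7637 in RC3H1, and a longer one has more room for a match. The 3 stem-loops of ZC3H12A and the first 2 of the 3 in NFKBIZ are shown because these were the regulator and the listed target that were differentially expressed genes (DEGs, nominal P under 0.01 and |Log2FC| ≥ 1) in both MEC2 and PCL12, with the loop in capitals:
ZC3H12A, chr1:37483840-37483858, plus strand: uugauacaCAUuguaucuc
ZC3H12A, chr1:37484033-37484051, plus strand: uugggcacCGUgugccugc
ZC3H12A, chr1:37484301-37484319, plus strand: auuuuaaaUAUuuuaagca
NFKBIZ, chr3:101859470-101859488, plus strand: guuguuucUAUgaaacaaa
NFKBIZ, chr3:101859498-101859516, plus strand: uucacuauUAUauaguggg

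The nonamer, in capitals, is shown for the 3 genes of the ZFP36 family, each of which held it 1 time:
ZFP36, chr19:39409201-39409219, plus strand: cgacuUUAUUUAUUcuaau
ZFP36L1, chr14:68788082-68788100, minus strand: uuggaUUAUUUAUUuuaga
ZFP36L2, chr2:43223453-43223471, minus strand: uuaacUUAUUUAUUaucuu

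These matches describe the sequence only, and binding was not measured.

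ZC3H12A, the gene of Regnase-1 (chromosome 1, 37474580 to 37484377), was the only one of the 10 to meet the DEG definition in any line, in the fit of all libraries without the replicate block. In HG3 it was measured at 117, 115 and 149 CPM in CpG replicates 1, 2 and 3 and 61.9, 81.3 and 105 CPM in the unstimulated ones. In MEC2 it was 210.0, 215 and 90.1 CPM after CpG and 62, 48.5 and 35.6 CPM without it. In PCL12 the levels were 137, 140.2 and 97.5 CPM after CpG against 43.4, 61 and 34.8 CPM. Every stimulated library lay above every unstimulated library of its line, so the groups did not overlap in any of the 3 lines (two-sided exact permutation test over samples, p = 0.1 in each, and 3 against 3 cannot give less). Of all 31872 genes tested, 2.14% in HG3, 2.52% in MEC2 and 2.53% in PCL12 were higher without overlap, and ZC3H12A was the only one of the 10 regulators among them in each line. The ratio of stimulated to unstimulated was above 1 in 9 of 9 replicate pairs, with log2 values of 0.92, 0.49 and 0.50 for the HG3 pairs, 1.76, 2.15 and 1.34 for those of MEC2, and 1.66, 1.20 and 1.48 for those of PCL12.

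**Figure D1:**
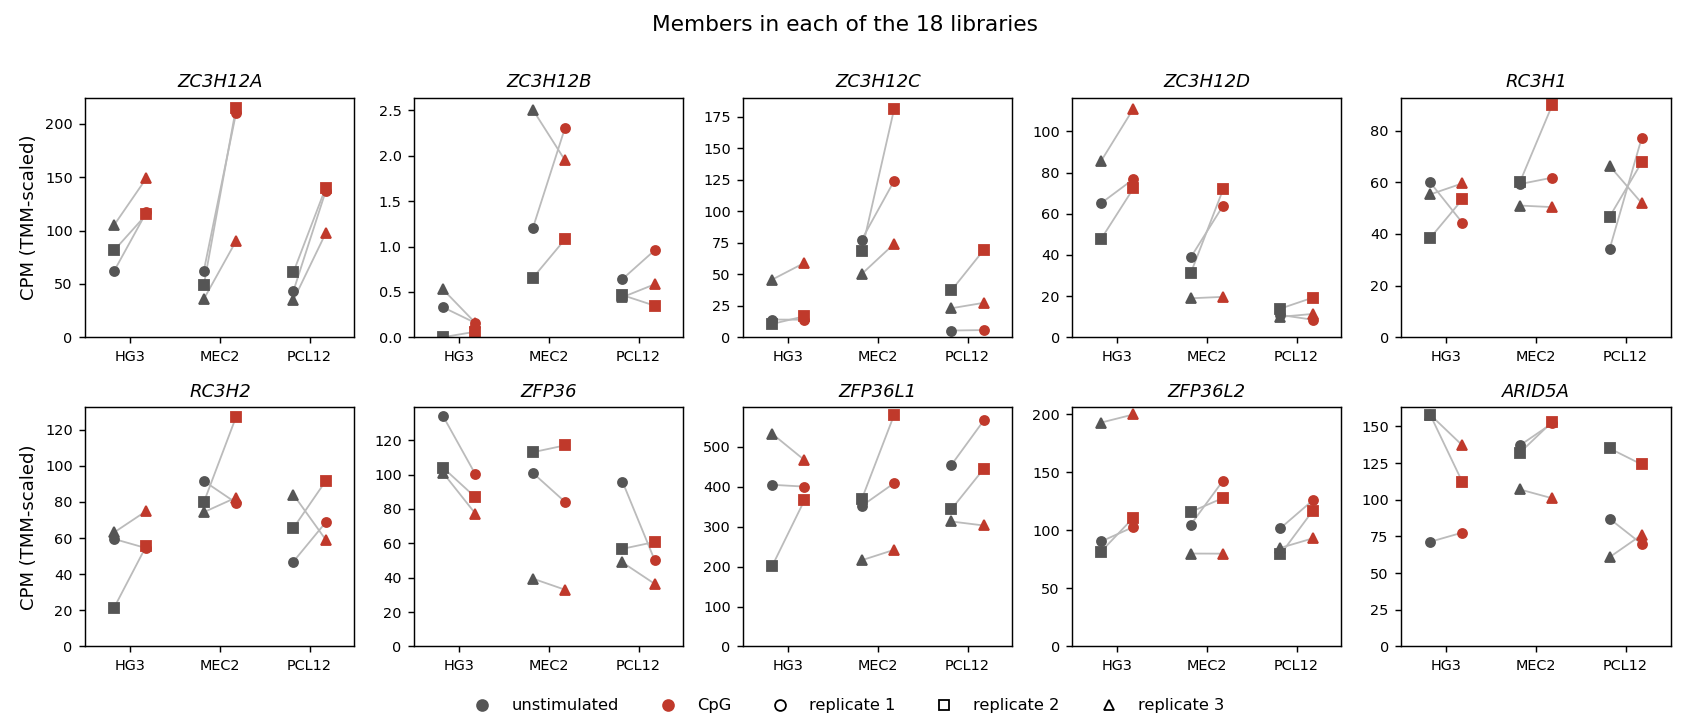
Level of each of the 10 genes in the 18 libraries, in TMM-scaled CPM on linear axes that start at 0, with grey points for unstimulated and red points for CpG-stimulated libraries and lines joining the samples of a replicate. For ZC3H12A all 9 lines rise and the red points of each cell line lie above its grey points, whereas the other panels show groups that overlap, except for ZFP36 in HG3.

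In edgeR's quasi-likelihood fit of all 6 groups, the Log2FC of ZC3H12A was 1.82 ± 0.31 (SE, 3 against 3 libraries) in MEC2, 1.43 ± 0.31 in PCL12 and 0.61 ± 0.30 in HG3. With DEGs defined by a nominal P value under 0.01 and |Log2FC| ≥ 1, ZC3H12A was a DEG in MEC2 and in PCL12 and not in HG3, where the 95% interval ran from -0.01 to 1.23. This made 1 of 10 regulators a DEG in MEC2, where DEGs were 0.251% of all genes tested, and 1 of 10 in PCL12, where they were 0.116%. The paper had already listed ZC3H12A as upregulated in both lines from these data, so these counts are not independent of the choice of genes. In HG3, 0 of 10 were DEGs against 0.496% of all genes; 0 regulators had an unadjusted P under 0.05 by edgeR there, and DESeq2 and limma-voom also called 0. After Benjamini-Hochberg adjustment over all genes, edgeR's adjusted p for ZC3H12A was 0.0587 in MEC2 and 1 in PCL12 and HG3, so that 0 of 10 regulators passed 0.05 in any line, where 0.00314% of all genes passed in HG3, 0.00314% in MEC2 and 0% in PCL12. Unadjusted, edgeR gave P under 0.05 for 2 of 10 regulators in MEC2, 1 in PCL12 and 0 in HG3, and after adjustment DESeq2 called ZC3H12A in MEC2 (adjusted p = 0.000803) while limma-voom called none. Averaged over the 3 lines, the Log2FC was 1.29 ± 0.18 (edgeR, adjusted p = 0.00161), and 1 of 10 regulators passed against 0.00941% of all genes. This call was lost without PCL12 replicates 2 and 3 (1.37 ± 0.24, adjusted p = 0.107 by edgeR) and without the replicate 2 libraries of HG3 and MEC2 (adjusted p = 0.39 by edgeR), and over 12 settings the adjusted p ran from 6.06e-47 to 0.39.

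With the replicate as a block, which removes what the paired samples share, the estimates for ZC3H12A hardly moved (1.75 ± 0.21 in MEC2, 1.45 ± 0.21 in PCL12 and 0.64 ± 0.21 in HG3) and the calls changed. In MEC2 the 2 libraries of replicate 2 correlated at -0.0133 in their deviations from the group mean, and CpG replicate 1 with unstimulated replicate 2 at 0.449. The pairing of MEC2 replicates 1 and 2 thus rests on their numbers. In MEC2 and PCL12 the blocked edgeR fit gave adjusted p = 1.87e-12 and 6.11e-08, and limma-voom with the block gave 0.00095 and 0.00802. In HG3 both blocked fits missed the threshold (adjusted p = 0.373 by edgeR and 0.766 by limma-voom), although the blocked edgeR 95% interval, 0.23 to 1.04, lay above 0. Under this fit 2 of 10 regulators passed in MEC2, 1 in PCL12 and 0 in HG3, where 0.333%, 0.0471% and 0.135% of all genes did, and 2 of 10 passed for the average of the lines against 0.555%. Over the 13 other settings tried, the adjusted p of ZC3H12A in MEC2 lay between 3.02e-20 and 1, in PCL12 between 4.07e-27 and 1, and in HG3 between 0.00219 and 1. It passed in 6 settings in MEC2, in 6 in PCL12 and in 1 in HG3, the blocked edgeR fit without the replicate 2 libraries of HG3 and MEC2 (0.72 ± 0.15). In the blocked edgeR fit 6 residual degrees of freedom were left and the prior degrees of freedom were estimated as infinite, against 12 and 14.1 without the block, so that the spread around the trend was taken from all genes together. In PCL12 replicate 1 alone, 1 stimulated against 1 unstimulated library, the Log2FC was 1.66 (95% interval 0.52 to 2.80, adjusted p = 1 by edgeR), where the lone libraries were assumed to vary like the other groups.

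ZC3H12C and ZC3H12D, relatives of Regnase-1 that share its nuclease and zinc finger architecture, showed smaller differences in MEC2. ZC3H12C in MEC2 stood at 124, 181 and 74.1 CPM after CpG and at 77.5, 68.6 and 50.2 CPM without it, higher in each of the 3 pairs although the groups overlapped. Its Log2FC was 0.95 ± 0.91 without the block (adjusted p = 1 by edgeR) and 0.88 ± 0.21 with it (adjusted p = 0.017 by edgeR, 0.182 by limma-voom), and the adjusted p ranged from 0.017 to 1 over the 13 other settings. ZC3H12C also passed for the average of the lines in the blocked edgeR fit (0.55 ± 0.12, adjusted p = 0.00466) and not in the blocked limma-voom fit (adjusted p = 0.245), and the edgeR call was lost without PCL12 replicates 2 and 3 (0.45 ± 0.17, adjusted p = 0.529). ZC3H12D in MEC2 was at 63.9, 71.8 and 19.6 CPM after CpG and at 38.8, 31.2 and 18.9 CPM without it, where replicate 3 was the lowest of both groups. Its Log2FC was 0.81 ± 0.38 (adjusted p = 1 by edgeR), and it became a second DEG of MEC2, with a Log2FC of 1.20, when CpG replicate 3 was left out.

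In the other lines no difference of these 2 genes passed. ZC3H12D in HG3 was at 76.8, 72.3 and 111 CPM after CpG and at 65.1, 47.7 and 85.6 CPM unstimulated, higher in 3 of 3 pairs with overlapping groups (Log2FC 0.39 ± 0.38 without the block, and 0.40 with a 95% interval of -0.02 to 0.82 with it). ZC3H12C in HG3 was at 13.9, 16.6 and 59 CPM after CpG and at 14, 10.5 and 45.7 CPM unstimulated, with replicate 3 far above the others in both treatments. In PCL12 it stood at 5.67, 69.3 and 27.3 CPM after CpG and at 5.29, 37.2 and 23 CPM unstimulated, higher in 3 of 3 pairs (0.42 with the block, interval -0.00 to 0.85). Replicate 1 of PCL12 had by far the least ZC3H12C in both treatments, and replicates 2 and 3, the libraries with MEC2 transcripts, had more, while MEC2 itself held 50.2 to 181 CPM. The part of MEC2 transcripts in the PCL12 level of ZC3H12C was not tested. In replicate 1 alone the Log2FC of ZC3H12C in PCL12 was 0.10, against 0.64 over all replicates. For ZC3H12D the PCL12 estimate was 0.17 over all replicates and -0.35 in replicate 1 alone. ZC3H12B was close to the detection limit in HG3, with 0 to 20 counts, and above it in MEC2, with 16 to 88, and in PCL12, with 8 to 67. Its Log2FC had standard errors of 0.88 to 0.95.

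For the roquins, RC3H1 and RC3H2, no difference between treatments passed adjustment in any line. RC3H1 lay between 34 and 89.8 CPM and RC3H2 between 21.4 and 127 CPM over the 18 libraries, and in each line the stimulated and unstimulated ranges overlapped. Their Log2FC ran from 0.03 to 0.42 without the block, with 95% intervals that reached at most 1.00 upward and -0.52 downward. With the block, the intervals of RC3H2 in HG3 (0.49, 0.07 to 0.90) and of RC3H1 in PCL12 (0.46, 0.04 to 0.88) lay above 0 (adjusted p = 1 in each by edgeR), and the HG3 value of RC3H2 was 0.07 without the replicate 2 libraries. In PCL12 replicate 1 alone, 1 stimulated against 1 unstimulated library, RC3H1 went from 34 to 77.3 CPM, a Log2FC of 1.19, whereas in replicate 3 it went from 66.4 to 51.9 CPM. The lowest RC3H2 value, 21.4 CPM, belonged to the HG3 unstimulated replicate 2 library that was rich in mitochondrial counts, and without the replicate 2 libraries of HG3 and MEC2 the Log2FC of RC3H1 in HG3 and of RC3H2 in MEC2 changed sign, to -0.15 and -0.02.

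ZFP36, the tristetraprolin gene, passed no threshold in any line, and its estimates were below 0 in all 3. In HG3 it was at 100.2, 86.8 and 77.3 CPM after CpG and at 134, 104 and 101 CPM without it, so the stimulated libraries were all lower (two-sided exact permutation test, p = 0.1, again the lowest value available), as were 1.59% of all genes tested. The 10 regulators gave no other case without overlap downward: 0 in MEC2, against 2.2% of all genes, and 0 in PCL12, against 2.02%. The Log2FC of ZFP36 was -0.36 ± 0.38 in HG3, -0.12 ± 0.38 in MEC2 and -0.45 ± 0.38 in PCL12 (adjusted p = 1 in each by edgeR), and the ratio was above 1 in 0 of 3 pairs in HG3, in 1 in MEC2 and in 1 in PCL12. With the block the average over the lines was -0.31 ± 0.12 (adjusted p = 0.503 by edgeR, 0.0043 to 1 over 12 settings, where only the blocked fit without the replicate 2 libraries of HG3 and MEC2 passed). In MEC2 the sign depended on single libraries, from -0.53 without CpG replicate 2 to 0.25 without CpG replicate 3.

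ZFP36L1 and ZFP36L2, which restrain proliferation of B-cell precursors, and ARID5A showed no change that passed a threshold. ZFP36L1 varied between 201 and 579.7 CPM, ZFP36L2 between 79.4 and 200.0 CPM, and ARID5A between 60.8 and 158 CPM. The Log2FC of ZFP36L1 was 0.11 in HG3, 0.39 in MEC2 and 0.24 in PCL12, with a standard error of 0.33 in each. For ZFP36L2 it was 0.18, 0.22 and 0.33 with a standard error of 0.31, and for ARID5A -0.24, 0.11 and -0.07 with a standard error of 0.32. The intervals of these 9 estimates stayed within -0.90 and 1.07, so a change of the size of ZC3H12A in MEC2 lay outside them, whereas a change of up to 1 could not be told apart from none for ZFP36L1 in MEC2. Over the 10 regulators the median Log2FC was 0.15 in HG3, 0.27 in MEC2 and 0.27 in PCL12, beside medians of 0.00, 0.00 and 0.02 over all genes tested.

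**Figure D2:**
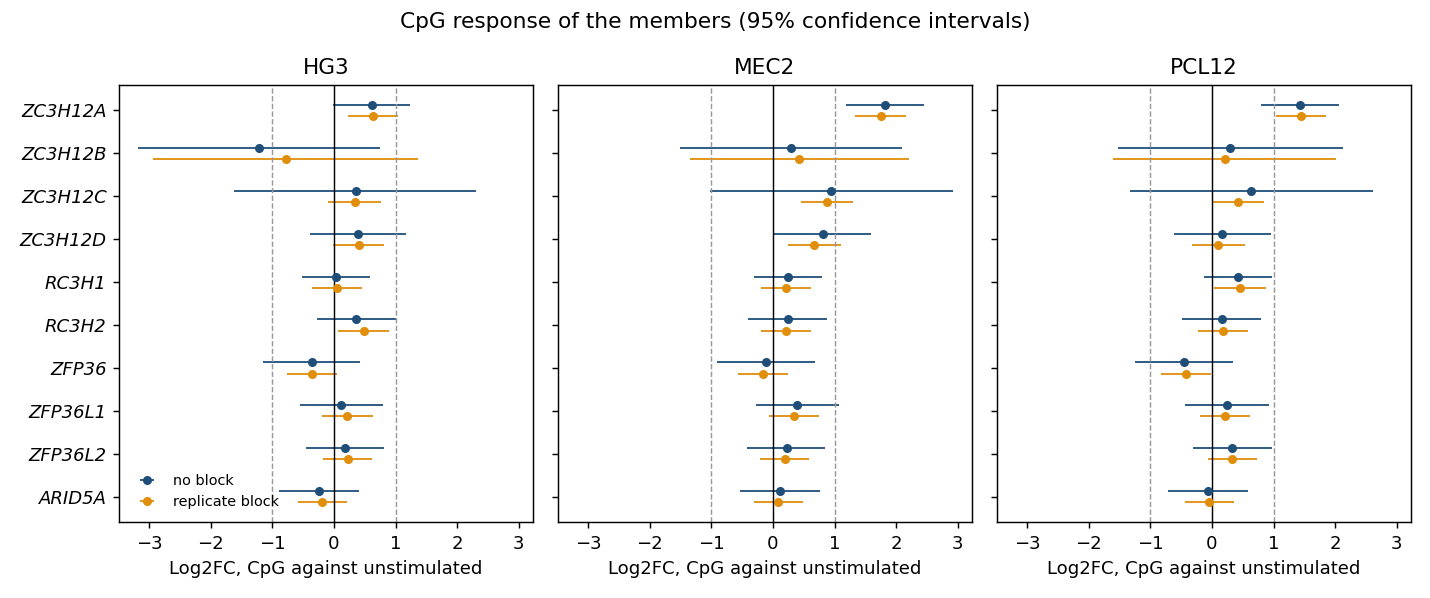
Log2FC of CpG-stimulated against unstimulated cells for the 10 genes in each line, as points with 95% confidence intervals from edgeR without (blue) and with (orange) the replicate block, with dashed lines at -1 and 1. The intervals of ZC3H12A lie above 0 in MEC2 and PCL12 in both fits, and in HG3 with the block only. The block narrows the intervals except that of ZC3H12B in HG3, with those of ZC3H12B in MEC2 and PCL12 narrowed very little.

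Whether the response of ZC3H12A differed between the lines was tested directly. The Log2FC was higher in MEC2 than in HG3 by 1.21 (95% interval 0.33 to 2.09, adjusted p = 1 by edgeR) and higher in PCL12 than in HG3 by 0.82 (interval -0.06 to 1.70). Between MEC2 and PCL12 the difference was 0.39 (interval -0.49 to 1.27), and it was 0.18 (interval -1.11 to 1.46) without PCL12 replicates 2 and 3 and 0.21 (interval -0.89 to 1.30) without the replicate 2 libraries of HG3 and MEC2. Without the latter libraries the MEC2 to HG3 difference was 0.96 (interval -0.25 to 2.16). Each of the 3 MEC2 pairs and each of the 3 PCL12 pairs had a larger ratio than each HG3 pair, and neither difference passed adjustment over all genes. In the fit without the block, 0 of 10 regulators passed in the 3 comparisons, where 0% of all genes passed for MEC2 against HG3, 0.00314% for PCL12 against HG3 and 0% for MEC2 against PCL12. At an unadjusted P under 0.05 there was 1 regulator for MEC2 against HG3 and 0 in each of the other comparisons, and DESeq2 and limma-voom called 0 as well. With the block the MEC2 to HG3 difference was 1.12 ± 0.29 (adjusted p = 0.0771 by edgeR, 0.765 by limma-voom). Again 0 of 10 passed, with 0.141%, 0.069% and 0.0126% of all genes called in the same order. When the replicate 2 libraries of HG3 and MEC2 were left out of the blocked fit, the MEC2 to HG3 difference passed at 0.85 ± 0.21 (adjusted p = 0.0318 by edgeR), and over 12 settings its adjusted p ran from 0.0318 to 1.

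Among the 10 regulators, the unstimulated lines differed most clearly in ZC3H12D, with no count of how many of all genes were separate between lines. Its unstimulated mean was 66.1 ± 19 CPM in HG3, 29.6 ± 10.0 CPM in MEC2 and 11.5 ± 2.08 CPM in PCL12 (SD, n = 3), without overlap between any of the lines. PCL12 was below HG3 by a Log2FC of -2.52 ± 0.40 (adjusted p = 0.000109 by edgeR, at most 0.0151 in the 8 other settings), and 1 of 10 regulators passed in this comparison, against 9.44% of all genes. A count of 1 of 10 is near that share. For MEC2 against HG3 the value of ZC3H12D was -1.16 ± 0.38 (adjusted p = 0.0574 by edgeR, 0.00153 to 0.156 in other settings), and 0 of 10 passed against 9.78% of all genes. In that comparison 4 regulators had an unadjusted P under 0.05, and DESeq2 and limma-voom each called 2. For MEC2 against PCL12 it was 1.36 ± 0.39 (adjusted p = 0.0742 by edgeR, 0.000662 to 0.364 in other settings), where 0 of 10 passed against 2.05%, 1 had an unadjusted P under 0.05, DESeq2 called 1 and limma-voom 0. In single libraries the PCL12 values of ZC3H12D were 10.8, 13.9 and 9.89 CPM, lower than the MEC2 values of 38.8, 31.2 and 18.9 CPM. PCL12 replicate 1, with few MEC2 transcripts, lay at 10.8 CPM and was not the lowest of the 3.

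The unstimulated level of ZC3H12A followed the order HG3 (82.8 ± 21.8 CPM), MEC2 (48.7 ± 13.2 CPM) and PCL12 (46.4 ± 13.3 CPM; SD, n = 3). HG3 overlapped MEC2 only through its lowest library, at 61.9 CPM against 62 CPM, and was just above PCL12, whose highest library was at 61 CPM, while MEC2 and PCL12 covered almost the same range. The Log2FC against HG3 was -0.77 ± 0.30 in MEC2 and -0.84 ± 0.30 in PCL12 (adjusted p = 0.126 and 0.0894 by edgeR). After CpG the means were 127 ± 19 CPM in HG3, 172 ± 70.7 CPM in MEC2 and 125 ± 23.9 CPM in PCL12, ranges that overlapped between all 3 lines. ZC3H12C was highest in unstimulated MEC2, at 65.4 ± 14 CPM against 23.4 ± 19.4 CPM in HG3 and 21.8 ± 16 CPM in PCL12, and its MEC2 values did not overlap those of either other line (adjusted p = 0.365 and 0.547 by edgeR). How many of all genes were separate in this way was not counted. Against PCL12 replicate 1 alone the excess of MEC2 in ZC3H12C was 3.60 (adjusted p = 0.204 by edgeR, with the lone library assumed to vary like the other groups), compared with 1.58 over all replicates. ZC3H12B had more counts in MEC2 than in HG3 (Log2FC 2.29 ± 0.93, adjusted p = 0.137 by edgeR), while the differences of the roquins, the ZFP36 family and ARID5A between lines were between -0.75 and 0.77 on the log2 scale.

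Genes known to be controlled by these regulators were examined from lists of textbook targets, which were drawn up with earlier results of these data known. NFKBIZ, which encodes IκBζ and whose mRNA is a target of Regnase-1, was at 144, 160.1 and 87.2 CPM after CpG and at 36.7, 24.2 and 24.5 CPM without it in MEC2. In PCL12 it was at 173, 174 and 97.2 CPM against 37.9, 60.4 and 37.4 CPM, and in HG3 at 202, 206 and 293 CPM against 126, 93 and 225 CPM. The stimulated libraries were above all unstimulated ones in MEC2 and PCL12, whereas the ranges overlapped in HG3, where the unstimulated level was already 148 ± 68.8 CPM. The Log2FC was 2.20 ± 0.33 in MEC2 (adjusted p = 0.0154 by edgeR), 1.71 ± 0.33 in PCL12 and 0.66 ± 0.32 in HG3 (95% interval 0.00 to 1.31). With the block the HG3 value was 0.73 (interval 0.33 to 1.13, adjusted p = 0.139 by edgeR). Without HG3 unstimulated replicate 3 the unblocked HG3 value was 1.09. The call in MEC2 was lost without the replicate 2 libraries of HG3 and MEC2 (1.93 ± 0.38, adjusted p = 1 by edgeR), which include the MEC2 library rich in mitochondrial counts, and held when these were left out of the blocked fit (1.91 ± 0.15, adjusted p = 8.77e-33). In PCL12 the adjusted p was 0.541 by edgeR, and with the block the adjusted p was 2.56e-11 by edgeR and 0.00802 by limma-voom. Among the 13 alternatives NFKBIZ had an adjusted p between 8.77e-33 and 1 in MEC2, passing in 10, and between 5.98e-40 and 1 in PCL12, passing in 7. Unstimulated MEC2 and PCL12 cells held less NFKBIZ than HG3 cells, by a Log2FC of -2.38 and -1.71 (adjusted p = 1.38e-05 and 0.000614 by edgeR).

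ZC3H12A and NFKBIZ were thus the regulator and the target that were DEGs in the same 2 lines. In the 9 pairs NFKBIZ had log2 ratios of 0.67, 1.14 and 0.38 for HG3, 1.97, 2.73 and 1.83 for MEC2, and 2.19, 1.53 and 1.38 for PCL12. The ratio of NFKBIZ was the larger one in 6 of the 9 pairs, all but HG3 replicates 1 and 3 and PCL12 replicate 3. Pearson's r of the 2 genes was 0.900 over the 9 pairs and 0.847 over the log2 CPM of the 18 libraries. The points share lines, libraries and scaling, and the pairs of HG3 lie apart from the rest, so both are descriptions.

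**Figure D3:**
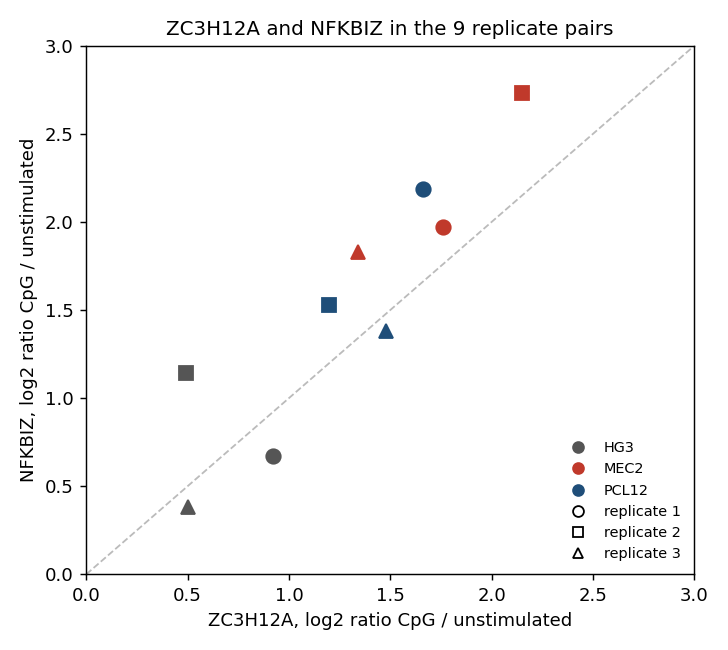
Log2 ratio of CpG-stimulated to unstimulated CPM for ZC3H12A (horizontal axis) and NFKBIZ (vertical axis) in the 9 replicate pairs, colored by cell line, with a dashed line where both ratios are equal. The HG3 pairs lie below 1 for ZC3H12A and between 0.38 and 1.14 for NFKBIZ, while the MEC2 and PCL12 pairs reach 1.20 to 2.15 for ZC3H12A and 1.38 to 2.73 for NFKBIZ.

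Of 12 mRNAs known as Regnase-1 or Roquin targets, 11 were tested. By edgeR without the block the DEGs among them were 0 in HG3, 1 in MEC2 and 1 in PCL12, both times NFKBIZ, where 0.496%, 0.251% and 0.116% of all genes were DEGs. In HG3, edgeR gave 2 of the 11 at an unadjusted P under 0.05, and DESeq2 and limma-voom called 0. By the same definition DESeq2 gave 4 DEGs in MEC2, adding ICOS, NFKBID and TNFRSF4. With the block, edgeR placed 6 of the 11 past an adjusted p of 0.05 in MEC2, all higher after CpG: NFKBIZ, TNFRSF4 (OX40, a costimulatory receptor), ICOS, NFKBID (IκBNS), TNF and REL, against 0.333% of all genes. By limma-voom with the block 1 of them passed, NFKBIZ. In PCL12 the blocked edgeR fit placed NFKBIZ and TNF past the threshold, against 0.0471% of all genes, and in HG3 none, against 0.135%. The median Log2FC of the list was 0.29 in HG3, 1.25 in MEC2 and 0.71 in PCL12, beside 0.00, 0.00 and 0.02 over all genes. Several members were near 0 counts. With those at or under 3 counts per library left out and genes at 0 in one group set against that limit, the medians were 0.31 over 10 genes, 0.93 over 8 and 0.60 over 9.

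TNF, whose 3′ UTR held 5 overlapping nonamers and 1 stem-loop, belongs to the lists of both families. It was at 104, 93 and 69.9 CPM after CpG and at 51.9, 47.6 and 52.4 CPM without it in HG3, and at 39.3, 52.5 and 38.9 CPM against 21.4, 24.9 and 23.7 CPM in PCL12. In MEC2 the levels were 139, 171 and 70.1 CPM against 81.2, 66.8 and 56.1 CPM. TNF was higher in 9 of 9 pairs and its groups were separate in HG3 and PCL12. The Log2FC was 0.81 to 0.90 in the 3 lines with a standard error of 0.27, just under the 1 required of a DEG, and the average was 0.87 ± 0.16 (adjusted p = 0.0531 by edgeR, 1.12e-08 with the block). The blocked call of TNF in MEC2 was lost without the replicate 2 libraries of HG3 and MEC2 (0.56 ± 0.16, adjusted p = 0.0771 by edgeR) and without PCL12 replicates 2 and 3. In HG3 the blocked call was made only without the replicate 2 libraries of HG3 and MEC2 (0.72 ± 0.16, adjusted p = 0.00656 by edgeR). In PCL12 TNF passed in 2 of 13 settings, the blocked edgeR fits that kept PCL12 replicates 2 and 3. Between MEC2 and HG3 the response of TNF differed by 0.09 (95% interval -0.69 to 0.86).

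By limma-voom with the block none of the other named targets passed adjustment in MEC2. TNFRSF4 in MEC2 stood at 7.39, 15.7 and 3.62 CPM after CpG against 4.1, 4.04 and 0.855 CPM, higher in 3 of 3 pairs with groups that overlapped (Log2FC 1.58 ± 0.61, adjusted p = 1 by edgeR and 0.00205 with the block, and with the block 1.37 without the replicate 2 libraries of HG3 and MEC2, adjusted p = 0.00295). NFKBID in MEC2 was at 161, 374 and 58 CPM against 111, 91.4 and 47.4 CPM, where the 374 CPM belonged to the library rich in mitochondrial counts, and in the blocked fit its Log2FC was 0.94 with and 0.42 without the replicate 2 libraries (adjusted p = 0.00502 and 0.336 by edgeR, 0.00502 to 1 over 13 settings). REL, the c-Rel subunit of NF-κB, was at 203, 257 and 89.3 CPM against 117, 105 and 62 CPM in MEC2 (Log2FC 0.95 ± 0.77 without and 0.87 ± 0.21 with the block), higher in 3 of 3 pairs. Without the replicate 2 libraries the blocked value of REL was 0.67 ± 0.14 (adjusted p = 0.00119 by edgeR), and over 13 settings its Log2FC stayed between 0.67 and 0.97. ICOS had 5, 0 and 7 counts in stimulated MEC2 and 0 in each unstimulated library, a difference of a few reads. IL6, the classic Regnase-1 target, had 22, 5 and 7 counts in stimulated and 11, 0 and 4 in unstimulated HG3. Stimulated MEC2 libraries held 4, 6 and 0 counts and stimulated PCL12 libraries 22, 1 and 3, against 0 in all 6 unstimulated libraries of these lines, so no fold change is given.

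Among 17 of 18 known targets of the ZFP36 family that were tested, CCND1 (cyclin D1) was the only DEG by edgeR without the block. It was lower in HG3 with a Log2FC of -1.24 ± 0.39 (adjusted p = 1 by edgeR), where 0.496% of all genes were DEGs. Its HG3 levels were 5.28, 4.29 and 4.6 CPM after CpG and 4.68, 21.2 and 8.02 CPM without it, and the 21.2 CPM came from the library rich in mitochondrial counts. Without the replicate 2 libraries of HG3 and MEC2 the Log2FC of CCND1 in HG3 was -0.34 ± 0.36, no longer a DEG, and with the block it was -0.97 with these libraries and -0.30 without them, a DEG in neither. CXCL8, the interleukin-8 gene, was higher in 3 of 3 pairs in HG3 and in MEC2 and passed with the block in both (1.12 ± 0.28, adjusted p = 0.0407, and 1.72 ± 0.28, adjusted p = 5.71e-06, by edgeR), where 0.135% and 0.333% of all genes did. In this blocked edgeR fit CXCL8 was also a DEG in both lines. By limma-voom with the block it passed adjustment in neither, and its replicates spanned 1.17 to 20.3 CPM in stimulated MEC2. The call of CXCL8 in HG3 was lost when PCL12 replicates 2 and 3 were left out of the blocked fit. Without the block there were 0 DEGs of 17 in MEC2 and in PCL12, where 0.251% and 0.116% of all genes were DEGs, so that counts of 0 say nothing particular about the list, with 2 genes at an unadjusted P under 0.05 in each by edgeR, and limma-voom added IL6 in PCL12. The median Log2FC of the list was 0.00 in HG3, 0.20 in MEC2 and 0.15 in PCL12, beside 0.00, 0.00 and 0.02 over all genes.

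No gene of the machinery through which the regulators work was called. Of 25 genes of the deadenylation, decapping and decay machinery, such as CNOT1, DCP2 and XRN1, 0 were DEGs or passed adjustment in any line by edgeR with or without the block, DESeq2 or limma-voom, and 0 had an unadjusted P under 0.05 by any of them. Without the block their Log2FC stayed between -0.30 and 0.37. Over all genes DEGs were 0.116 to 0.496%, so counts of 0 in lists of this length say nothing particular about them. The same counts of 0 held for 11 other AU-rich element binding proteins, including ELAVL1 (HuR) and KHSRP, with Log2FC between -0.63 and 0.54. Of 12 kinases, proteases and ligases that act on the regulators, such as MALT1, which cleaves Regnase-1, and IKBKB, which phosphorylates it, 0 were called by the same fits. The lowest and highest Log2FC of these 12 were -0.52 and 0.35, and 0 had an unadjusted P under 0.05 by edgeR without the block, whereas with it 1 did in HG3 and 1 in PCL12.

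**Figure D4:**
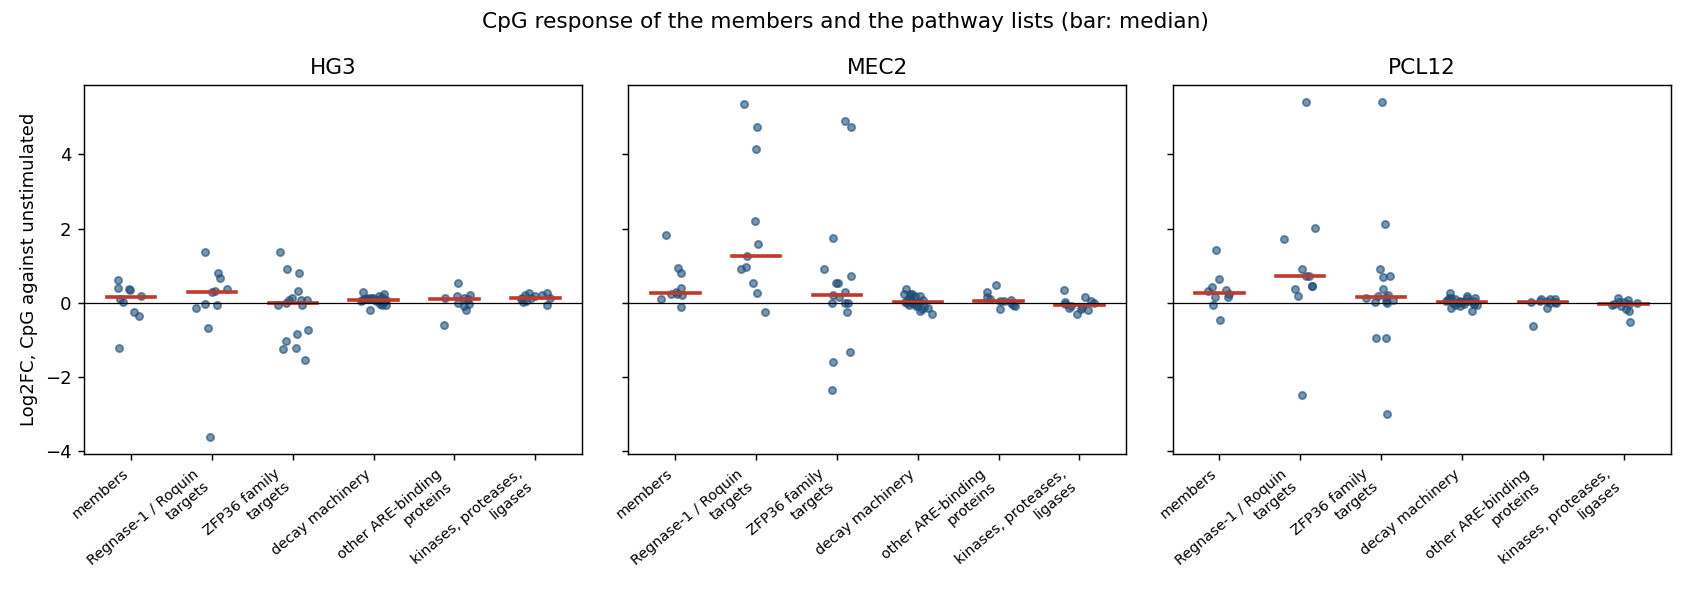
Log2FC of CpG-stimulated against unstimulated cells in each line for every tested gene of 6 lists (points, spread sideways for legibility), with the median of each list as a red bar. The 10 regulators and the target lists spread widely, with a median of 1.25 for the Regnase-1 and Roquin targets in MEC2 of which the highest points rest on few counts, while the decay machinery stays between -0.30 and 0.37.

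The genes most like ZC3H12A were ranked among 10659 genes whose mean reached 5 CPM. Over the log2 CPM of the 18 libraries the 5 highest Pearson correlations were those of BAIAP2L1 (0.904), MAP3K8 (0.895), MFSD2A (0.864), NFKBIZ (0.847) and UNC119 (0.841). Over the log2 ratios of the 9 pairs they were those of CD40 (0.981), PIM1 (0.977), CBFA2T3 (0.974), PTP4A3 (0.951) and NOD2 (0.948), with NFKBIZ at rank 22. Of the other regulators 8 were ranked, and ZC3H12B was under the filter. Over the libraries, the closest was ZFP36L2 at rank 134 (0.597), followed by ZFP36L1 at rank 293 (0.514), and over the pairs ARID5A at rank 1067 (0.585). The libraries share lines and scaling, and these values describe likeness of pattern only.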

How the data were processed

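The 18 libraries were analysed from 1 table of raw counts deposited by the authors, with 56609 gene symbols and no normalization. Submitters' processing notes name FastQC, MultiQC, Trimmomatic, STAR, featureCounts and the build hg38, without versions. Labels name a Promega kit and the stranded Lexogen QuantSeq kit, the methods a Qiagen kit and a reverse-stranded protocol, so whether counts are 3′ tags or cover whole transcripts is not known here, and levels were not compared between genes. Every column was mapped to a sample by its label. Total counts ranged from 20382943 to 67308932. Where PCR copies were counted, intervals and floors cover counting error only.

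Genes with at least 10 counts over all libraries were tested (31872 of 42248 with a count). Counts were scaled by TMM and fitted with edgeR 4.0.16 (robust quasi-likelihood, 1 mean per group, R 4.3.3), and P values were adjusted by Benjamini-Hochberg over all genes. DEGs followed the definition of the study's methods, which used limma. Alternatives were DESeq2 1.42.0, limma-voom (limma 3.58.1), RLE scaling, filterByExpr, no filter, a replicate block, each line alone, PCL12 without replicates 2 and 3, and each library left out. Library totals, the block with limma-voom or without doubtful libraries, and leaving out the mitochondria-rich pairs were added after seeing the data. CPM used TMM-scaled library sizes, except that detection limits and the PCL12 share of MEC2 transcripts used library totals. The fitting code was tested on simulated data.

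The series description states that each replicate series held 1 stimulated and 1 unstimulated sample, so numbers pair the samples. Deviations of same-numbered libraries over 13991 genes correlated at 0.259, 0.212 and 0.48 for HG3, at 0.189, -0.0133 and 0.611 for MEC2, where CpG replicate 1 correlated at 0.449 with unstimulated replicate 2 and CpG replicate 2 at 0.388 with unstimulated replicate 1, and at 0.607, 0.494 and 0.515 for PCL12. Named genes were the 10 regulators, NFKBIZ, IL6, list genes that were DEGs or passed adjustment in a line with or without the block, and the 5 genes most like ZC3H12A by each measure. The members and lists were chosen with earlier results of these data known. Sequences and positions are from GENCODE 44 on GRCh38.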

Additional observations from a re-analysis of the deposited data

Results flagged for a closer look

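The difference of the NFKBIZ response between MEC2 and HG3 stood out by its own test. With the replicate block the Log2FC of MEC2 exceeded that of HG3 by 1.44 (95% interval 0.87 to 2.01, adjusted p = 0.00193 by edgeR), and all 3 MEC2 pairs had a larger ratio than all 3 HG3 pairs. Without the block the difference was 1.54 (adjusted p = 1 by edgeR), with limma-voom and the block it was 1.50 (adjusted p = 0.66), and over 12 settings the adjusted p ran from 2.94e-07 to 1. HG3 began from an unstimulated level of 148 ± 68.8 CPM and MEC2 from 28.5 ± 7.16 CPM (SD, n = 3), and the part of this start in the difference was not tested. For ZC3H12A the same difference in the blocked fit was 1.12 (adjusted p = 0.0771 by edgeR). TNFRSF4 and CCND1 also differed between these lines in the blocked fit, by 2.21 ± 0.47 and 1.72 ± 0.37 (adjusted p = 0.00479 in each by edgeR, and from 0.00479 to 1 over 12 settings), and neither passed without the block (2.25 and 1.98, adjusted p = 1 by edgeR). In HG3 both had a lower fitted level after CpG (-0.67 and -1.24) and in MEC2 a higher one (1.58 and 0.73). The HG3 pair with the CCND1 log2 ratio farthest from 0, at -2.30, holds the library rich in mitochondrial counts. Without the replicate 2 libraries of both lines the blocked difference of CCND1 was 1.00 ± 0.31 and no longer passed (adjusted p = 0.255 by edgeR), and that of TNFRSF4 was 1.94 ± 0.43 (adjusted p = 0.00504 by edgeR). Groups of 3 are too small for the search for single outlying libraries.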

How the results depend on the processing

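The number of DEGs among the regulators was 0 in HG3 in all settings. When single libraries were left out it was 1 to 2 in MEC2 (ZC3H12D joined ZC3H12A without CpG replicate 3) and 1 in PCL12. Without PCL12 replicates 2 and 3 the PCL12 response rests on 1 stimulated and 1 unstimulated library, and no count is given. For the average of the lines the 1 called regulator became 2 with the replicate block, 0 without PCL12 replicates 2 and 3, 0 without the HG3 and MEC2 libraries of replicate 2, and 3 when these were left out of the blocked fit, where the difference of MEC2 against HG3 went from 0 to 1 (ZC3H12A). In unstimulated cells the count for MEC2 against HG3 was 2 with DESeq2, limma-voom and no filter and 1 with RLE scaling and filterByExpr. For PCL12 against HG3 it was 2 with no filter, and for MEC2 against PCL12 1 with DESeq2, 2 with no filter and 0 to 1 when single libraries were left out (1 without MEC2 unstimulated replicate 3). Of 609 single-gene values under alternatives, 577 kept direction and their status under the DEG definition, 5 became DEGs and 27 changed sign, among 13 of 36 results. None of the sign changes concerned ZC3H12A or NFKBIZ. Without PCL12 replicates 2 and 3, with or without the block, ZC3H12D in PCL12 was -0.35. Without the HG3 and MEC2 libraries of replicate 2, with or without the block, RC3H1 in HG3 was -0.15, RC3H2 in MEC2 -0.02 and ZFP36L1 in HG3 -0.10 or -0.09. With single libraries left out, Log2FC in HG3 ran from -0.62 to 1.28 (ZC3H12C), -0.11 to 0.17 (RC3H1), -0.17 to 0.44 (ZFP36L1) and -0.19 to 0.68 (ZFP36L2). In MEC2 the ranges were -0.06 to 0.93 (ZC3H12B), -0.02 to 0.42 (RC3H1), -0.02 to 0.36 (RC3H2) and -0.53 to 0.25 (ZFP36). In PCL12 they were -0.15 to 0.58 (ZC3H12B), -0.42 to 1.27 (ZC3H12C), -0.23 to 0.39 (ZC3H12D), -0.04 to 0.36 (RC3H2) and -0.38 to 0.29 (ARID5A). The causes were not tested.

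With 3 libraries per group the width of the intervals limits what can be seen for the regulators, and IL6, and ZC3H12B in HG3, also had few counts. The adjusted call of ZC3H12A, by contrast, changed in 6 settings in MEC2 and in 6 in PCL12. With the block, limma-voom called ZC3H12A in MEC2 and PCL12 and for the average, and no other regulator past adjustment.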
